A study of Mus musculus with 6 samples.

Results

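Ptgs2 and the genes that make and sense prostaglandins were examined in hippocampal RNA of mice, 24 h after a traumatic brain injury (TBI) or a sham operation. The 10 genes were taken by name: the cyclooxygenases Ptgs1 and Ptgs2, the prostaglandin synthases Ptges, Ptges2, Ptges3 and Ptgds, and the prostaglandin E receptors Ptger1, Ptger2, Ptger3 and Ptger4. They are 10 of the 52550 genes listed in the files, and all 10 were among the 18795 genes tested. The group was chosen by the difference of Ptgs2 between TBI and Sham in these same libraries, so its values in that comparison are a description and carry no test.

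Both groups were young adult male mice, given as C57BL / 6 in the labels and as C57B6/J in the methods. The TBI mice received a moderate controlled cortical impact over the right parietal bone, and the sham mice had the same ketamine and xylazine anaesthesia and the same craniotomy without the impact. Each group therefore carries the effects of anaesthesia and skull surgery, and no unoperated mouse was included. Hippocampal tissue of 3 Sham and 3 TBI mice gave 1 library per mouse, numbered 1 to 3 within each group. The methods describe exposing the hippocampus on the impacted side and on the other side without saying which entered a library.

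Prostaglandins are lipid signals made from arachidonic acid, which phospholipases and other lipases release from membranes. Cyclooxygenases turn it into prostaglandin H2, terminal synthases turn that into single products such as prostaglandin E2 or D2, and G protein-coupled receptors on nearby cells respond. In the forebrain, cyclooxygenase-2 is known as a product of excitatory neurons that follows synaptic activity, and as an inflammatory enzyme in glia and vessels, whereas cyclooxygenase-1 is known mainly from microglia.

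Promoter sequence is shown for both cyclooxygenases, for Ptges and for Ptger4, so that the constitutive and inducible enzymes and the receptor lowest in TBI relative to Sham can be compared just before their starts. The windows come from RefSeq on GRCm38.p6, run from 250 bases before to 50 bases after each start, and were found for 9 of the 10 genes (not Ptger1). Each line is printed 5′ to 3′ on the strand of the gene, and capitals mark matches to the motifs named below. The RefSeq start of Ptges lies inside the longer gene that GENCODE annotates, so its stretch does not abut the gene end given later, as those of Ptgs1, Ptgs2 and Ptger4 do.
Ptgs2, 150 bases before the start, chr1:150099881-150100030, plus strand: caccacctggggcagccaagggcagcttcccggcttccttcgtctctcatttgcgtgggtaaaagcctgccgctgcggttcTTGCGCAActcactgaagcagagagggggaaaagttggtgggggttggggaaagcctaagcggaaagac
Ptgs2, bases 4 to 30 after the start, within the annotated 5′ untranslated region, chr1:150100034-150100060, plus strand: gtcaccactaCGTCACGTGgagtccgc
Ptgs1, 150 bases before the start, chr2:36230276-36230425, plus strand: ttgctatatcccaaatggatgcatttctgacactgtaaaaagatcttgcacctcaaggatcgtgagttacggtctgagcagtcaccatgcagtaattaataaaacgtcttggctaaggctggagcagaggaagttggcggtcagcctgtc
Ptges, 150 bases before the start, chr2:30903298-30903447, minus strand: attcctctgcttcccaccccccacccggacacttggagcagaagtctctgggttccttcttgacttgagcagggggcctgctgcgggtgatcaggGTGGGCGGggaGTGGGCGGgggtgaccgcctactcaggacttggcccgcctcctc
Ptger4, 150 bases before the start, chr15:5244188-5244337, minus strand: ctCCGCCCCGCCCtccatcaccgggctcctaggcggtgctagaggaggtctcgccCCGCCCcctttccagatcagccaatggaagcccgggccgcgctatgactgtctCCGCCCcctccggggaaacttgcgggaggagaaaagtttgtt

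In the Ptgs2 window the C/EBP palindrome TTGCGCAA lay at bases -69 to -62, and it was present in 0.183% of the 32851 windows of all genes. The capitals after the Ptgs2 start hold the CRE core TGACG on the opposite strand (bases 14 to 18), which overlaps the E-box CACGTG (bases 17 to 22). Searched on both strands, the CRE core was in 20.8% of all windows and the E-box in 7.15%. The Ptges stretch holds the EGR core GTGGGCG at bases -55 to -49 and again at -44 to -38, each overlapping a GC box (CCGCCC on the opposite strand), and 7.97% of all windows held the EGR core. The Ptger4 stretch holds 4 GC boxes, of which the first pair share a base, and 35.7% of all windows held this motif. The Ptgs1 stretch holds none of the motifs searched, and neither the consensus NF-kB site (0.155% of all windows) nor the TATA box TATAAA (13.6%) was found in any of the 9 windows. A match is a run of letters and not a measured binding site.

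Library totals were 31630936 to 41771872 estimated counts. Bulk tissue was sequenced, so fewer cells of a type and less RNA per cell cannot be told apart. Libraries were set side by side as CPM, the counts of a gene relative to the scaled library total. The library labelled Sham2 stood apart in markers of injured tissue: the astrocyte filament gene Gfap was at 4054.64 CPM there, against 540.89 to 1477.86 CPM in the other 5 libraries. The summed inflammatory genes reached 419.51 CPM in Sham2, against 102.3 to 143.1 CPM elsewhere, and its 14 oligodendrocyte markers summed to 3245 CPM, against 9627 to 11723 CPM. The library labelled TBI1 stood apart in region markers, with striatal markers summing to 4802.15 CPM, against 223.4 to 313.2 CPM elsewhere. The dentate granule cell gene C1ql2 was at 2.45 CPM and the CA1 gene Fibcd1 at 13.1 CPM in TBI1, against at least 39.6 and 49.5 CPM in every other library, so these markers of the labelled tissue were low there. Prox1, a dentate granule cell gene, was also lowest there, at 19.6 CPM against 56.02 to 95.98 CPM, whereas Wfs1 was highest, at 276 CPM against 64.4 to 175 CPM. All 16 hippocampal markers summed to 1111 CPM in TBI1, the lowest sum, against 1186 to 1655 CPM elsewhere. That rank rests on Calb1, at 493 CPM in TBI3, since without it TBI3 was lowest (828 CPM, against 896 CPM in TBI1). Thalamic markers summed to 1172 CPM in TBI3, against 121 to 705 CPM elsewhere, so TBI3 stood apart in this list. The injury markers of Sham2 and the region markers of TBI1 go against their labels of sham operation and hippocampus, so both labels are in doubt. TBI3 was the lowest library in Gfap (540.89 CPM) and in the summed reactive astrocyte markers (889 CPM, against 918 in Sham1 and 974 in Sham3). The inflammatory sum of TBI3, 118.68 CPM, lay above those of Sham1 (102.3 CPM) and Sham3 (112.35 CPM). These markers thus did not set TBI3 clearly apart from Sham1 and Sham3, and they do not bear out its label of TBI. The labels were kept, and the direction of every difference between the groups rests on them. The fold change of each of the 10 genes is therefore given with and without Sham2 and TBI1. Without TBI3 none of the 10 fold changes turned in direction, and those of Ptgs2 and Ptger4 were -1.60 and -1.69 on the log2 scale. Sham2 was the highest of the 6 libraries for 6 of the 10 prostaglandin genes (60%), and for 4450 of the 18795 genes tested (23.7%).

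Ptgs2 (ENSMUSG00000032487.8, chr1:150100031-150108227, plus strand) encodes cyclooxygenase-2, the inducible cyclooxygenase. Its level was 34.1 CPM in Sham1, 36.7 in Sham2 and 18.3 in Sham3, and 7.91 CPM in TBI1, 11.8 in TBI2 and 8.51 in TBI3. The lowest Sham library lay above the highest TBI library, so the groups did not overlap. The Sham mean was 29.7 ± 9.94 CPM and the TBI mean 9.40 ± 2.09 CPM (SD, n = 3 each), and the fitted log2 fold change was -1.66 with a standard error of 0.31. It stayed below 0 with each library left out (-1.92 to -1.48), at -1.48 without Sham2, -1.55 without TBI1 and -1.37 without both. Sham2, the library highest in injury markers, was also highest in Ptgs2, and the part of its injury markers in that level was not tested.

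**Figure D1:**
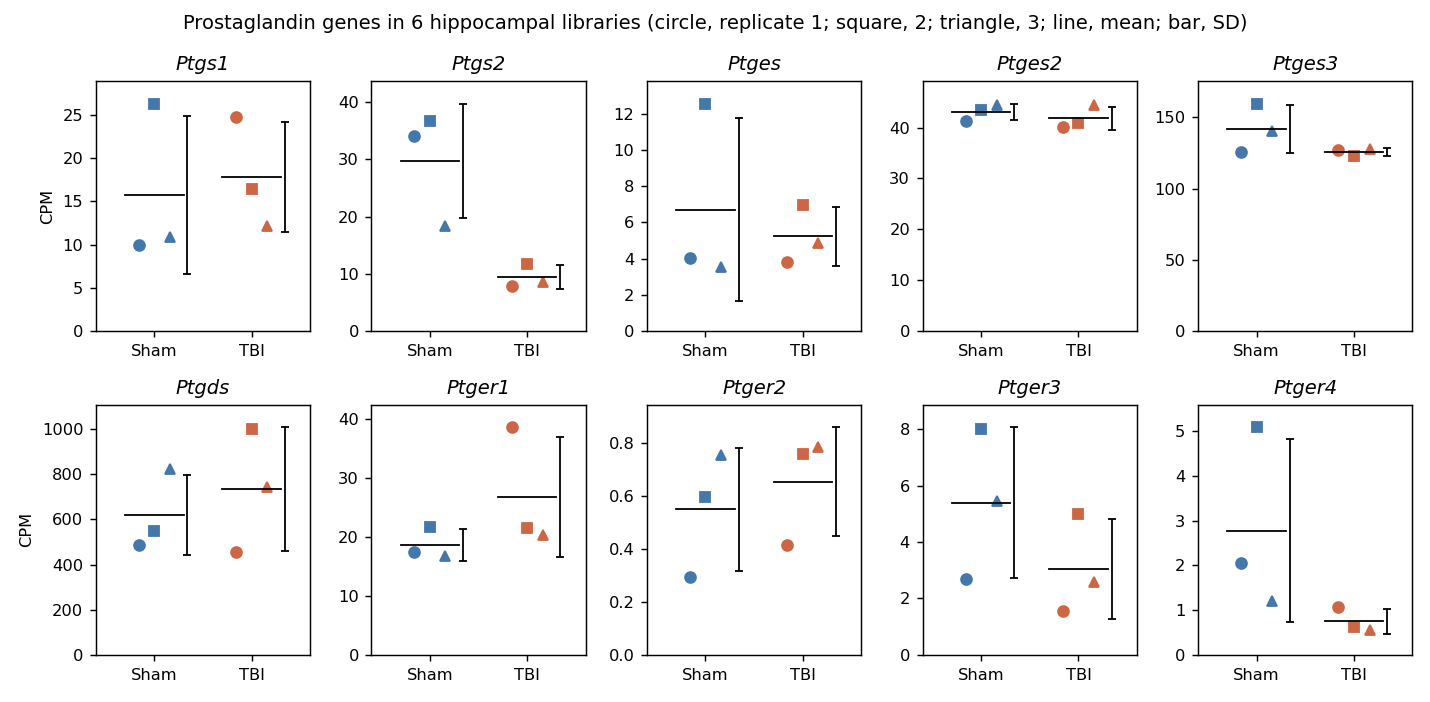
Level of each of the 10 prostaglandin genes in CPM (y axis, from 0) in the 3 Sham (blue) and 3 TBI (orange) libraries, where symbols give the replicate number, the horizontal line the group mean and the vertical bar 1 SD. Ptgs2 and Ptger4 are the genes whose Sham libraries all lie above their TBI libraries, and Sham2 (blue square) is the highest point for 6 of the 10 genes.

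The antisense gene Ptgs2os starts 68 bases from Ptgs2 on the opposite strand and shares no exonic base with it. It had 45, 28 and 8 estimated counts in Sham1, Sham2 and Sham3, and 15, 6 and 4 in TBI1, TBI2 and TBI3. Its groups overlapped, and its log2 fold change was -1.57 ± 0.78 (SE; edgeR adjusted p = 0.982). Whether the libraries keep strand is not given in the sources used here, so reads of genes on opposite strands that overlap cannot be told apart.

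Ptgs1 (ENSMUSG00000047250.13, chr2:36230426-36252272, plus strand) encodes cyclooxygenase-1, the constitutive form. Its level was 10.0004 CPM in Sham1, 26.3 in Sham2 and 10.9 in Sham3, and 24.7 CPM in TBI1, 16.4 in TBI2 and 12.2 in TBI3. The high values stood in Sham2 and TBI1, 1 library of each group, and the other Sham libraries lay below every TBI library. The log2 fold change was 0.18 ± 0.45 (SE; edgeR adjusted p = 0.985), and it moved to 0.77 without Sham2, -0.14 without TBI1 and 0.45 without both. The 14 microglial and macrophage markers, all of them tested, had no gene called, and they summed to 553 to 769 CPM in Sham and 547 to 1121 CPM in TBI, with the highest sum in TBI1 and the next highest in Sham2. The part of microglia in the Ptgs1 level was not tested.

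The cyclooxygenases were also set side by side per length of exon. Ptgs2 stood at 7.44, 8.02 and 4.004 CPM per kb of exon in Sham1, Sham2 and Sham3, and at 1.73, 2.57 and 1.86 in TBI1, TBI2 and TBI3. Ptgs1 stood at 2.57, 6.76 and 2.80 CPM per kb in the Sham libraries and at 6.36, 4.22 and 3.14 in the TBI libraries, in the same order. On this scale Ptgs2 was the higher transcript in each of the 3 Sham libraries and the lower in each of the 3 TBI libraries. The order depended on the length used in Sham2, where division by the longest transcript gave 8.25 CPM per kb for Ptgs2 and 9.16 for Ptgs1, and it did not turn in the other 5 libraries. Its share of the summed cyclooxygenase level per kb was 62.5% ± 10.5 in Sham and 32.1% ± 9.34 in TBI (SD, n = 3 each). This share contains the values that chose Ptgs2, and it is given without a test. The summed level of both was 10.5 ± 4.02 CPM per kb in Sham and 6.63 ± 1.55 in TBI, with overlapping libraries (6.80 to 14.8 and 4.998 to 8.09).

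**Figure D2:**
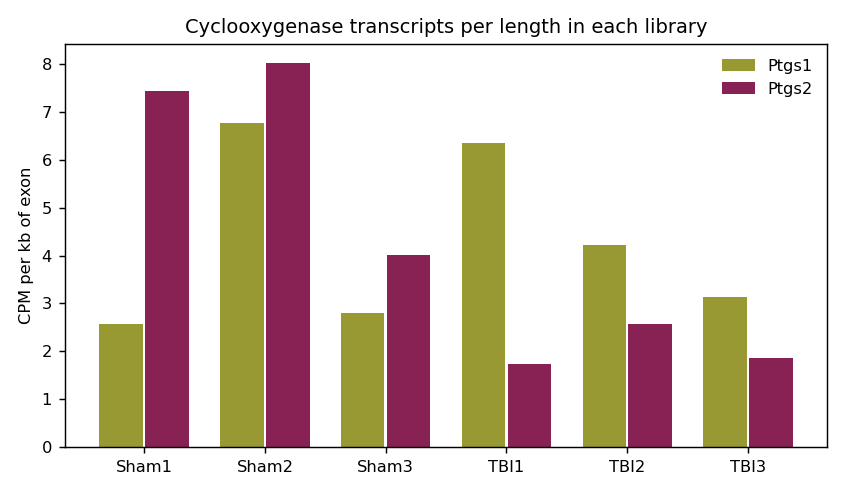
Level of Ptgs1 (olive) and Ptgs2 (purple) per length, in CPM per kb of exon (y axis, from 0), with 1 pair of bars for each library. With this length the Ptgs2 bar is the taller in every Sham library and the shorter in every TBI library (with the longest transcript the order turns in Sham2), and the Ptgs1 bars of Sham2 (6.76) and TBI1 (6.36) stand above those of the other libraries.

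The terminal synthases showed no difference that passed the test. Ptges (chr2:30889471-30929863, minus strand) encodes the inducible microsomal prostaglandin E synthase that is often coupled to cyclooxygenase-2. Its level was 4.05 CPM in Sham1, 12.5 in Sham2 and 3.52 in Sham3, and 3.797 CPM in TBI1, 6.98 in TBI2 and 4.89 in TBI3. Sham2 alone was above every TBI library, and the other Sham libraries lay at or below the middle of the TBI values. The log2 fold change of -0.36 ± 0.54 (SE; edgeR adjusted p = 0.983) accordingly turned to 0.46 without Sham2 and 0.65 without Sham2 and TBI1, and was -0.18 without TBI1.

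Ptges2 (chr2:32395896-32405772, plus strand), a membrane-associated prostaglandin E synthase, had the smallest standard error of the 10 genes. It ranged from 41.4 to 44.4 CPM in Sham and from 40.1 to 44.4 CPM in TBI, with a log2 fold change of -0.044 ± 0.11 (SE; edgeR adjusted p = 0.985), which was -0.037 without Sham2, -0.015 without TBI1 and -0.0082 without both. Ptges3 (chr10:128058954-128077272, plus strand) encodes the cytosolic prostaglandin E synthase, also known as the Hsp90 co-chaperone p23. It ranged from 125 to 160 CPM in Sham and from 123 to 127 CPM in TBI, and the log2 fold change was -0.18 ± 0.12 (SE; edgeR adjusted p = 0.982), with -0.083 without Sham2, -0.18 without TBI1 and -0.091 without both. The TBI libraries of Ptges3 thus sat close to the lowest Sham library.

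Ptgds (chr2:25466709-25470046, minus strand) encodes lipocalin-type prostaglandin D synthase, a secreted enzyme known from leptomeninges, choroid plexus and oligodendrocytes. Its level was 487 CPM in Sham1, 549 in Sham2 and 821 in Sham3, and 454 CPM in TBI1, 1001 in TBI2 and 743 in TBI3. Both groups spanned most of the range, and the log2 fold change was 0.24 ± 0.32 (SE; edgeR adjusted p = 0.982). It was 0.16 without Sham2, 0.49 without TBI1, 0.42 without both and -0.056 without TBI2, the library with the highest Ptgds level. Summed markers of leptomeninges and fibroblasts (15 of 15 tested) ran from 264 to 434 CPM in Sham and from 169 to 371 CPM in TBI. Those of the choroid plexus (12 of 12 tested) ran from 127 to 3140 CPM and from 512 to 3507 CPM, so the choroid plexus sums differed widely within each group. The part of these tissues in the Ptgds level was not tested.

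The receptors of prostaglandin E2, named EP1 to EP4, couple to different G proteins. EP2 and EP4 raise cyclic AMP, EP3 mostly lowers it, and EP1 is linked to calcium. Ptger4 (chr15:5206661-5244187, minus strand), which encodes EP4, was at 2.05 CPM in Sham1, 5.08 in Sham2 and 1.20 in Sham3, and at 1.08 CPM in TBI1, 0.63 in TBI2 and 0.56 in TBI3. These are 83, 204 and 46 estimated counts in Sham and 44, 20 and 20 in TBI, so the groups did not overlap, although Sham3 and TBI1 were 2 counts apart. The log2 fold change was -1.87 ± 0.62 (SE), with all 6 libraries the largest in size among the 10 genes. Its unadjusted p was 0.0204 and its edgeR adjusted p 0.982. It was -1.09 without Sham2, -2.21 without TBI1 and -1.44 without both, and no edgeR setting gave an adjusted p below 0.801. Ptgs2 was larger in size without Sham2 (-1.48) and without TBI2 (-1.86, against -1.75 for Ptger4). DESeq2 gave an adjusted p of 0.430.

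Ptger4 and Ptgs2 were the 2 of 10 genes whose groups did not overlap with TBI lower, beside 5.45% of all genes tested. None of the 10 had the TBI libraries all above the Sham libraries, beside 4.77% of all genes tested (10.2% in either direction). Ptgs2 is 1 of these 2 by the way the genes were chosen, so the count is a description. Ptger4 shares 1015 exonic bases (15.3%) with the pseudogene Gm15937, which is listed at 0 in every library, and 82 (1.23%) with Ttc33 on the opposite strand.

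Ptger3 (chr3:157566892-157645888, plus strand), encoding EP3, was at 2.69 CPM in Sham1, 8.03 in Sham2 and 5.47 in Sham3, and at 1.54 CPM in TBI1, 4.99 in TBI2 and 2.58 in TBI3. The groups overlapped, with Sham1 below TBI2. The log2 fold change was -0.83 ± 0.56 (SE; edgeR adjusted p = 0.982), and it was -0.43 without Sham2, -0.51 without TBI1 and -0.11 without both, but -1.15 without Sham1 and -1.39 without TBI2. Ptger2 (chr14:44988195-45003820, plus strand), encoding EP2, was near the lower end of what these libraries measured, at 12 to 29 estimated counts in Sham and 17 to 28 in TBI. Its log2 fold change was 0.25 ± 0.54 (SE; edgeR adjusted p = 0.985), and it was 0.31 without Sham2, 0.49 without TBI1, 0.55 without both and -0.049 without Sham1.

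Ptger1 (chr8:83666678-83672753, plus strand), encoding EP1, was at 17.4 CPM in Sham1, 21.8 in Sham2 and 16.8 in Sham3, and at 38.6 CPM in TBI1, 21.5 in TBI2 and 20.3 in TBI3. TBI1 alone stood above the Sham range. The log2 fold change of 0.52 ± 0.28 (SE; edgeR adjusted p = 0.982) was 0.16 without TBI1, 0.65 without Sham2 and 0.29 without both. The Ptger1 level is uncertain, because whether the counts keep strand is not given in the sources used here.

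**Figure D3:**
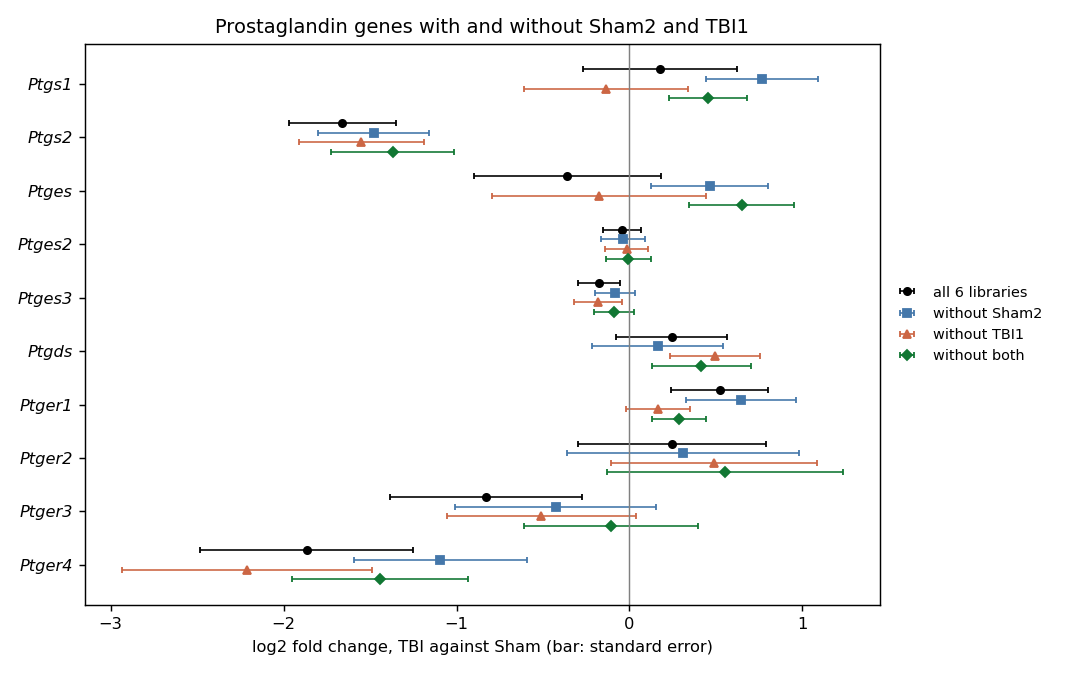
Log2 fold change of TBI against Sham (x axis) for the 10 prostaglandin genes, from all 6 libraries (black), without Sham2 (blue), without TBI1 (orange) and without both (green), with bars of 1 standard error. Ptgs2 and Ptger4 stay below -1 in all 4 fits, whereas Ptges and Ptgs1 have points on both sides of 0.

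With edgeR's quasi-likelihood test, the rule for calling a gene was a fold change of more than 1.5 times in either direction with an adjusted p below 0.1 and an unadjusted p below 0.05. None of the 10 genes was called, and 0% of the 18795 genes tested were called (806 genes, 4.29%, had an unadjusted p under 0.05). DESeq2 with its defaults called 46 of 20988 genes (0.219%, and 0.0905% as lower in TBI), and of the 10 genes it called Ptgs2, which the choice of the genes already fixed. On the genes kept by edgeR's filter it called 50 (0.266%, and 0.101% as lower), again with Ptgs2. Among the other 9 genes the smallest edgeR adjusted p was 0.982. Of the 10 fold changes 6 were below 0 and 4 above, with a median of -0.11 on the log2 scale, beside a median of 0.0091 and a 10th to 90th percentile of -0.46 to 0.52 over all genes tested.

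Compared per length within the Sham libraries, Ptgds was the most abundant transcript at 375 ± 108 CPM per kb of exon (SD, n = 3), followed by Ptges3 at 64.0 ± 7.70 and Ptges2 at 8.52 ± 0.31. Ptgs2 at 6.49 ± 2.17, Ptgs1 at 4.04 ± 2.36 and Ptger1 at 3.42 ± 0.50 CPM per kb came next. The Sham libraries of these 3 genes overlapped from one gene to the next, whereas all Ptges2 values lay above all Ptgs2 values. Ptges at 1.70 ± 1.29, Ptger3 at 0.95 ± 0.47 and Ptger4 at 0.42 ± 0.31 CPM per kb also overlapped with their neighbours, and Ptger2 was lowest at 0.11 ± 0.045, below every Ptger4 value. With the longest transcript as length, Ptger3 was at 1.51 and Ptger4 at 0.737 CPM per kb. In the TBI libraries Ptgs2, at 2.05 ± 0.46 CPM per kb, lay below Ptger1 (4.91 ± 1.87) and Ptgs1 (4.57 ± 1.64). Among the prostaglandin E synthases, Ptges3 held 86.2% ± 0.48 of the summed level per kb in Sham and 85.5% ± 0.91 in TBI. Ptger4 held 7.99% ± 4.04 of the summed receptor level in Sham and 1.98% ± 0.14 in TBI, and Ptger1, whose level is uncertain, held 71.1% ± 7.84 and 85.1% ± 7.71. The Ptger4 share is uncertain too, because Ptger1 makes up most of the sum.

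The rest of the pathway was followed in 6 lists, in none of which a gene was called. Of 16 tested genes of substrate release, 1 was higher and 1 lower at an unadjusted p under 0.05, beside 2.16% of all genes tested higher and 2.13% lower, and the median log2 fold change was -0.017. The secreted phospholipase Pla2g3 was at 1.77 ± 0.66 CPM in Sham and 4.33 ± 1.57 CPM in TBI (log2 fold change 1.29 ± 0.43, SE; edgeR adjusted p = 0.982), with all TBI libraries above all Sham libraries. Plaa, a phospholipase A2-activating protein, was at 63.0 ± 11.8 and 48.3 ± 2.28 CPM, with all TBI libraries below all Sham libraries. Of the 16 genes, 1 had groups apart with TBI higher and 2 with TBI lower, beside 4.77% and 5.45% of all genes tested. The most abundant genes of the list, Abhd12 and Mgll, which encode lipases of lysolipids and of monoacylglycerol, were at 278 and 234 CPM in Sham and at 278 and 220 CPM in TBI.

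None of 8 other prostanoid synthases (median 0.13), 6 other prostanoid receptors (0.0012), 8 genes of prostaglandin transport and breakdown (-0.13) and 11 genes of the leukotriene and lipoxygenase branch (-0.093) reached an unadjusted p under 0.05. Within them, Hpgd, the enzyme that starts prostaglandin breakdown, was at 12.8 ± 6.20 CPM in Sham and 10.3 ± 0.87 CPM in TBI, with Sham2 highest at 19.9 CPM. Zadh2, a prostaglandin reductase, was at 26.7 ± 5.82 and 34.6 ± 3.03 CPM. It was the 1 of 8 genes of its list without overlap between the groups, beside 4.77% of all genes tested apart with TBI higher. Ptgdr, a receptor of prostaglandin D2, was low, at 1.36 ± 1.12 CPM in Sham and 0.67 ± 0.68 CPM in TBI. Of 23 tested genes of EP receptor signalling, Prkacb, a catalytic subunit of protein kinase A, was higher at an unadjusted p under 0.05 (291 ± 9.995 CPM in Sham, 378 ± 52.9 CPM in TBI). The cyclic AMP phosphodiesterase gene Pde4a was lower at that level (98.5 ± 16 and 75.7 ± 5.68 CPM), and the list's median was -0.098. Of these 23 genes, 2 had groups apart with TBI higher and 2 with TBI lower, beside 4.77% and 5.45% of all genes tested. Gnal, a G protein subunit abundant in striatum, was at 705 CPM in TBI1 and at 119 to 216 CPM elsewhere, in the library with high striatal markers.

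**Figure D4:**
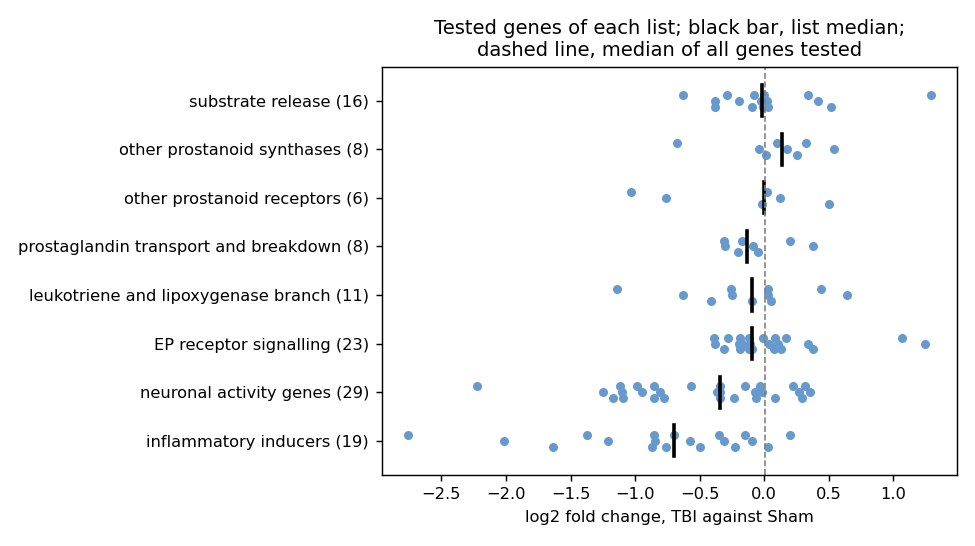
Log2 fold change of TBI against Sham (x axis) for each tested gene (point) of the 6 pathway lists and 2 context lists, with the number tested in parentheses, a black bar at each list's median and a dashed line at the median of all genes tested (0.0091). The 6 pathway medians lie between -0.13 and 0.13, and those of the neuronal activity genes and inflammatory inducers at -0.34 and -0.70.

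Since Ptgs2 is known to follow neuronal activity and inflammation, genes of both were listed beside it. Of 29 neuronal activity genes, 23 had a fold change below 0, 3 were lower at an unadjusted p under 0.05 (2.13% of all genes tested were) and none was called, with a median of -0.34 on the log2 scale. The neurotrophin gene Bdnf was at 57.8, 78.9 and 46.6 CPM in Sham1, Sham2 and Sham3 and at 22.6, 34.7 and 28.7 CPM in TBI1, TBI2 and TBI3 (log2 fold change -1.09 ± 0.24, SE; edgeR adjusted p = 0.982). Its groups did not overlap, nor did those of Cort, which encodes cortistatin (8.28 ± 1.47 and 3.68 ± 1.54 CPM), which makes 2 of the 29 genes, beside 5.45% of all genes tested. Npas4, an activity-dependent transcription factor, spanned 2.63 to 25.5 CPM in Sham and 1.096 to 4.43 CPM in TBI. The median of the list was -0.079 without Sham2, -0.77 without TBI1 and -0.22 without TBI3.

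The inflammatory inducers had no gene at an unadjusted p under 0.05 among the 19 tested, with 17 fold changes below 0 and a median of -0.70. That direction rested on Sham2, since the median was 0.89 without it. The chemokine gene Cxcl10 was at 36.7 CPM in Sham2 and at 0.21 to 2.82 CPM in the other 5 libraries, and Il1b, encoding interleukin-1 beta, at 3.36 CPM and 0.18 to 0.79 CPM. Cebpb, a C/EBP family transcription factor, was at 30.5 ± 15.8 CPM in Sham and 17.0 ± 4.29 CPM in TBI.

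Over the 6 libraries, the genes with the profile most like that of Ptgs2 were ranked by the root mean square difference between log2 CPM values, each centred on the gene's own mean. The nearest of the genes tested were Acot4 (0.26), A630023P12Rik (0.27), Gm31816 (0.27), Drd5 (0.28), Crhbp (0.29), Gm2274 (0.29), Dusp4 (0.31) and Ak5 (0.31), beside a median difference of 0.94 over all genes tested. Because the measure contains the difference between TBI and Sham that chose Ptgs2, these are descriptions. Drd5, the dopamine D5 receptor, was at 18.7, 23.7 and 13.5 CPM in Sham1, Sham2 and Sham3 and at 4.78, 10.9 and 7.75 CPM in TBI1, TBI2 and TBI3. Dusp4, a MAP kinase phosphatase, was at 29.97 ± 4.84 CPM in Sham and 13.9 ± 3.46 CPM in TBI, and Crhbp, the corticotropin-releasing hormone binding protein, at 34.5 ± 8.62 and 15.3 ± 6.43 CPM. TBI1 was the lowest library for these 3 genes, as for Ptgs2, which a ranking by likeness over the same 6 libraries largely fixes.

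Bdnf was 12th in this order (0.32), Ptger4 197th (0.54), Ptgs2os 465th (0.62) and Arc 610th (0.65). The activity genes Fos and Npas4 were 4327th (0.84) and 7349th (0.90) of the 18795 genes tested, and Egr1 was 14436th (1.12) and Ptgs1 13775th (1.08). Egr1, an immediate early transcription factor, was highest in TBI1 at 257 CPM, the library in which Ptgs2 was lowest. The 16 markers of hippocampal neurons summed to 1320 to 1655 CPM in Sham and 1111 to 1321 CPM in TBI, with 13 of 16 fold changes below 0 and a median of -0.77. These sums of all 16 markers overlapped narrowly. Calb1 was at 493 CPM in TBI3 and at 111 to 215 CPM elsewhere. Without Calb1, left out after its values were seen, the sums were 1178 to 1527 CPM in Sham and 828 to 1075 CPM in TBI. They did not overlap, but this separation rests on leaving out that marker. Of the 16 markers 3 did not overlap with TBI lower, beside 5.45% of all genes tested. Their part in the Ptgs2 level was not tested.

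**Figure D5:**
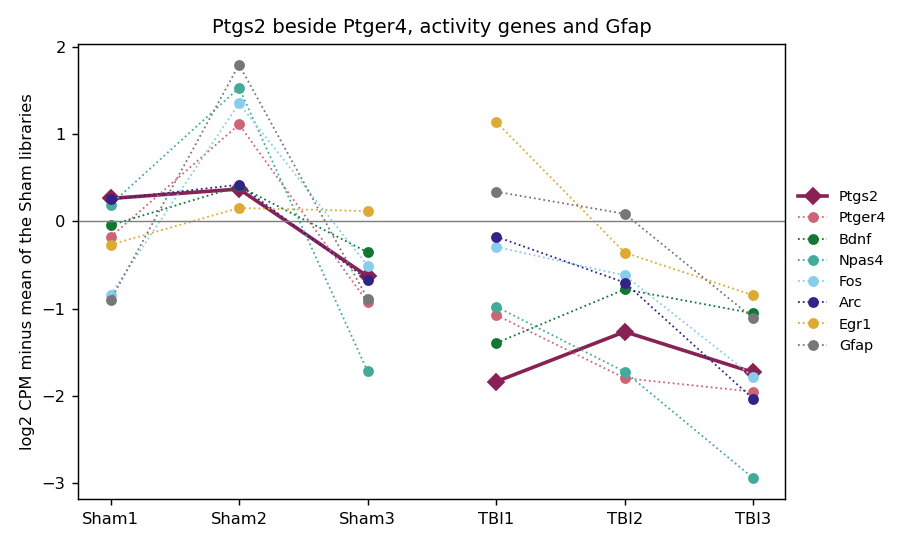
Level of Ptgs2 (purple diamonds), Ptger4, 5 activity genes and Gfap in each library, as log2 CPM after subtracting the gene's Sham mean (y axis), where lines join the points of a gene within a group and mark no order. Ptgs2 runs from -0.63 to 0.37 in Sham and lies between -1.84 and -1.27 in TBI, whereas Egr1 is highest in TBI1 and Gfap in Sham2.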

How the data were processed

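Hippocampal RNA of 3 Sham and 3 TBI mice was sequenced, and groups and replicate numbers were taken from the sample labels. The authors ran FastQC, HISAT2 alignment to GRCm38 and StringTie. They deposited 1 whole number per gene and library, an estimated count that was not normalized. The versions they used, whether strand was kept and how coverage became counts are not given in the sources used here. Multiples of 4 are over-represented among low values, which are thus no tally of reads, and no counting interval is given. Precision is therefore read from the spread of 3 libraries per group. Depth was 31630936 to 41771872 estimated counts per library.

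Of 52550 identifiers, 52403 were matched to a symbol in GENCODE vM21 (GRCm38) and 147 were not. Oxer1 and Ctgf were not found under these symbols. With R 4.3.3, edgeR 4.0.16 and limma 3.58.1, genes were filtered by filterByExpr (18795 kept), scaled by TMM (factors 0.970 to 1.02) and tested by edgeR's quasi-likelihood test with Benjamini-Hochberg adjustment over all of them. Standard errors came from the fold change and its F statistic. CPM used TMM-scaled totals, and the per-kb scale divided CPM by the union of exons. Scripts were tested on simulated data. Alternatives were DESeq2 1.42.0 in 2 forms, library totals, upper-quartile scaling, a minimum of 1 count in some library or of 10 in all, a stricter adjusted p (0.05), dropping the fold change limit, omitting each library in turn, and a block for the replicate number. Leaving out Sham2 and TBI1 together, DESeq2's defaults without single libraries, and the hippocampal marker sums without Calb1 were added after seeing the data.

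Members and lists were chosen with earlier results of these data known. Named genes were the 10 members, genes that overlap them, up to 4 genes of a list with the smallest p and up to 2 with the highest mean CPM, up to 3 of each marker list, and the 8 genes nearest to Ptgs2 in profile. The values of 1 gene named by this rule are not reported here. Arc, Egr1, Fos, Il1b, Prox1, C1ql2 and Fibcd1 were named after their values were seen. Nothing shows that mice of the same replicate number share a litter or day. Their deviations from the group means correlated at -0.0996, -0.065 and 0.15 over genes for numbers 1, 2 and 3, so the numbers were not treated as pairs.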

Additional observations from a re-analysis of the deposited data

How the results depend on the processing

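Of 308 alternative values, 275 kept their direction and their side of the threshold, or lay within the spread between libraries. The log2 fold change of Ptgs2 ran from -1.92 to -1.48 with each library left out and was -1.37 without Sham2 and TBI1. With the replicate number as a block it was -1.62 and 0 genes were called, and the block changed no call of the 10 genes. The count of genes called was 46 with DESeq2's defaults and 50 with DESeq2 on the genes kept by filterByExpr. Under edgeR it was 0 to 1 with each library left out (1, Zfp664, without TBI1) and 3 without Sham2 and TBI1 (Zfp664, Tomm5 and Pcdhgb8, named after their values were seen). Under DESeq2's defaults it was 33 without Sham1, 62 without Sham2, 122 without Sham3, 43 without TBI1, 325 without TBI2, 48 without TBI3 and 95 without Sham2 and TBI1. Of the 10 prostaglandin genes, 1 (Ptgs2) was called under every DESeq2 setting run, with each library left out (1 to 1) too, and 0 under every edgeR setting. Ptgs2 was chosen by this difference in these same libraries, so its calls are a description and carry no test. Fold changes that crossed 0 were those of Ptgs1 (-0.053 without Sham1, -0.030 without Sham3, -0.14 without TBI1, range -0.14 to 0.77), Ptger2 (-0.049 without Sham1, range -0.049 to 0.54), Ptgds (-0.056 without TBI2, range -0.056 to 0.49) and Ptges (0.46 without Sham2, range -0.67 to 0.46, and 0.65 without Sham2 and TBI1). The causes were not tested. With each library left out, the medians of EP receptor signalling ran from -0.097 to 0.060 (0.060 without Sham2), of inflammatory inducers from -0.99 to 0.89 (0.89 without Sham2) of other prostanoid synthases from -0.12 to 0.22 (-0.12 without TBI1), of other prostanoid receptors from -0.31 (without Sham1) to 0.16 (without Sham2), of transport and breakdown from -0.18 to 0.064 (0.064 without TBI1), of substrate release from -0.078 to 0.031, of the leukotriene branch from -0.24 to -0.043 and of activity genes from -0.77 to -0.079. Divided by the longest transcript in place of all exons, mean levels in Sham were 5.48 CPM per kb for Ptgs1, 6.67 for Ptgs2, 3.98 for Ptger1, 1.51 for Ptger3 and 0.737 for Ptger4. With 3 libraries a group, differences of the size seen for Ptges or Ptger3 lay within the spread between libraries.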
